A study of Mus musculus with 8 samples.

Results

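The genes described here are 6 marks of Schwann cells and of myelin, S100b, Mbp, Pmp22, Erbb3, Fabp7 and Foxd3, taken by name from a table of 17488 genes. All 6 were in the table and all 6 passed the filter for testing, but 3 of them, S100b, Fabp7 and Foxd3, passed it through the panobinostat libraries, reaching 1 CPM (counts scaled to library size) in all 4 of these and not in all 4 vehicle libraries. They were followed in RNA sequencing of whole neuroblastomas from 8 homozygous TH-MYCN mice, which carry human MYCN under the tyrosine hydroxylase promoter and form neuroblastomas in sympathetic tissue. The mice were about 6 weeks old, with tumours of 200 to 300 mm3, when dosing began. The treated group (n = 4) received panobinostat, a hydroxamate inhibitor of histone deacetylases, at 5 mg/kg in 2 doses 24 h apart, and the other 4 animals received vehicle on the same schedule. Harvest followed the last dose by 4 h, tumour and stroma were kept together, and each animal gave 1 library. All animals carried the transgene, so no group lacks MYCN. The comparison asks which transcripts differed in these tumours after about a day of histone deacetylase inhibition, here for glial genes.

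Schwann cells ensheathe peripheral axons, and satellite glia wrap the neurons of sympathetic ganglia. Both arise from the neural crest, as do the sympathoadrenal cells from which neuroblastoma forms, and Schwann cell stroma marks the more mature human tumours of this family. Neuregulin on axons signals through ERBB3 and ERBB2 on the glial precursor, SOX10 holds glial identity, and EGR2 starts the myelin programme that yields the proteins of compact myelin. In a bulk library, fewer cells of a type and less RNA per cell cannot be told apart.

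Read totals over the listed genes ran from 22055658 to 23830026 with vehicle and from 18664066 to 22235545 with panobinostat, and 1 CPM stood for 19.3 to 22.6 reads. Sympathoadrenal markers were present in every library. Of 9 such genes 6 fell with panobinostat, where 32.4% of all genes tested fell. The summed level of the 9 was 1970 to 2940 CPM with vehicle and 1030 to 1180 CPM with panobinostat. Reads of neighbouring organs set some panobinostat libraries apart. Adrenal cortex markers summed to 9.02 to 11.2 CPM with vehicle and to 39.3 to 2730 CPM with panobinostat, highest in library 4 and lowest in library 2, with 717 CPM in library 1 and 1010 CPM in library 3. Liver markers summed to 2.78 to 5.45 CPM against 11.9 to 6980 CPM. Exocrine pancreas markers summed to at most 13.2 CPM with vehicle and to 392 CPM in panobinostat library 2 and 2310 CPM in library 4, and kidney markers to at most 2.84 CPM with vehicle and 769 CPM in panobinostat library 3. So every treated library held more reads of some neighbouring organ than the vehicle libraries did, library 2 included.

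Of the 6 genes 3 rose with panobinostat, S100b, Fabp7 and Erbb3, and none fell. Pmp22, Mbp and Foxd3 made no call. S100b changed most, with a mean of 0.674 ± 0.403 CPM in vehicle and 6.67 ± 1.78 CPM in panobinostat tumours (mean ± SD, n = 4), and its groups alone did not overlap. Among all 16157 genes tested, 63.7% passed by the same rule (adjusted p below 0.05 in limma, Benjamini-Hochberg). Of all genes 31.2% rose and 32.4% fell, and 28.5% had every panobinostat value above every vehicle value. The median log2 change of the 6 genes was 1.52, against -0.02 over all genes tested. However, 3 of the 6 passed the filter through the panobinostat libraries, as did 8.7% of all genes tested. The medians are thus not on one footing. All 6 genes were highest in panobinostat library 2 among the treated tumours. With panobinostat libraries 3 and 4 left out, the pair with the highest adrenal cortex and liver sums though not the only ones with such reads, S100b was the 1 gene of the 6 that rose, against 23.4% of all genes.

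The upstream sequences of 4 of the genes are shown because S100b and Fabp7 rose while Pmp22 and Foxd3 made no call. They are the bases just before the RefSeq start site (GRCm38.p6, plus strand), cut where the gene model used for coordinates begins earlier. Capitals mark motif letters found on either strand among ACAAT (the core bound by SOX proteins), TATAAA (the TATA box), GGGCGG (the GC box) and CACGTG (the E-box bound by MYC proteins).
S100b, chr10:76253586-76253835: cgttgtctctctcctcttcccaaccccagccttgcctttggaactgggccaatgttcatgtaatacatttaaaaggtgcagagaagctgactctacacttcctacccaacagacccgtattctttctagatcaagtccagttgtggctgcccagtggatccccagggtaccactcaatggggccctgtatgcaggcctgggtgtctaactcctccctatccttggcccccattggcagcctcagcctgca
Fabp7, chr10:57784673-57784880: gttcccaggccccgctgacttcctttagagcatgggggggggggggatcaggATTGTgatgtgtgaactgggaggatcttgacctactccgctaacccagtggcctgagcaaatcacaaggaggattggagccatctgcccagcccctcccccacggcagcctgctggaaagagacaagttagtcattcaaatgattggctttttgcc
Pmp22, chr11:63128732-63128981: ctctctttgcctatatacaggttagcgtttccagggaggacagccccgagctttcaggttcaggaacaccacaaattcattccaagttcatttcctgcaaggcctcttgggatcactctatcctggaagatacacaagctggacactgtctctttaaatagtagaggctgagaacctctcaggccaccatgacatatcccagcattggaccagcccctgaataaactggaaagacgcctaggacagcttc
Foxd3, chr4:99656049-99656298: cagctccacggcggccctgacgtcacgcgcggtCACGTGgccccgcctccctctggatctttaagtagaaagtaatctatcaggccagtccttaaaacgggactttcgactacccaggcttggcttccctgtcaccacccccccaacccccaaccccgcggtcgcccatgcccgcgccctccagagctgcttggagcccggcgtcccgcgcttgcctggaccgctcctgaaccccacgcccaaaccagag

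Over 250 bases, the S100b window held 2 CpG dinucleotides, the Fabp7 window 4 and this Pmp22 window 3, against 21 in the Foxd3 window and a median of 6 over 32851 promoter windows of the same length. Pmp22 has 4 windows in the RefSeq table, and the most upstream is shown. The other 3 hold 14, 14 and 27 CpG dinucleotides. The Fabp7 window held ACAAT once, on the reverse strand and 198 bases before the start, which 27.7% of all windows hold at least once. The Foxd3 window held CACGTG once, 217 bases before the start, a motif in 6.0% of all windows. TATAAA and GGGCGG, in 12.4% and 32.7% of all windows, were in none of the 4 windows shown, although 2 of the other Pmp22 windows held GGGCGG. A match describes letters in a window and is not a measured binding site. Erbb3 and Mbp have no window here.

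Erbb3, on chromosome 10 (128567523 to 128589652, minus strand, mm10), encodes the neuregulin receptor that Schwann cell precursors need to survive and migrate. It was read at 3.40, 4.56, 11.1 and 8.22 CPM in vehicle libraries 1 to 4 and at 9.81, 31.8, 16.7 and 26.1 CPM in panobinostat libraries 1 to 4. The groups overlapped only where vehicle library 3 stood above panobinostat library 1. The log2 change was 1.64 (SE 0.45, 95% interval 0.62 to 2.66), a 3.12-fold rise (limma, adjusted p = 0.0105). This call was lost without panobinostat libraries 3 and 4 (1.52, adjusted p = 0.0706, limma), and a two-sided exact permutation test of the same means gave p = 0.0571.

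Other genes of neuregulin and ErbB signalling rose too. Of 20 listed genes 18 were in the table and 17 were tested, of which 11 rose, 1 fell and 5 were not called (median log2 change 1.01). Over all genes tested the share that rose was 31.2%. Of the 17, 3 reached 1 CPM in all 4 libraries only with panobinostat. Erbb2, the kinase partner of ERBB3, rose by 2.24 (SE 0.36, adjusted p = 5.17e-04, limma), from 1.69 to 4.95 CPM with vehicle to 8.05 to 17.9 CPM. Among vehicle tumours Erbb2 was highest in library 1, where Erbb3 was lowest, and with panobinostat it was again highest in library 1, where Erbb3 was lowest. The ligand gene Nrg1 (0.29, SE 0.52) and the receptor gene Erbb4 (-0.41, SE 0.27; -1.01 and called after quantile normalization) made no call, and neither did Nrg2 or Nrg3. The metalloprotease gene Adam17, which sheds ErbB ligands, changed by 1.51 (SE 0.11) and Rnf41, a ligase that degrades ERBB3, by -0.45 (SE 0.14). Both names were chosen with their values in view, and Rnf41 was not called without panobinostat libraries 3 and 4. ERBB2 and EGFR also act in epithelium and fibroblasts, whose markers are given further on.

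Foxd3, on chromosome 4 (99656299 to 99658622, plus strand), encodes a forkhead factor of neural crest stem cells and glial precursors. It held 5, 12, 126 and 85 reads in vehicle libraries 1 to 4 and 32, 189, 90 and 52 reads in panobinostat libraries 1 to 4, or 0.221 to 5.59 CPM and 1.43 to 9.79 CPM. The vehicle range took in 3 of the 4 treated values, all but library 2, and the SD among vehicle libraries (2.17 on the log2 scale) was larger than that of 99.2% of genes tested. The log2 change was 1.40 (SE 1.01, 95% interval -0.88 to 3.68), which did not pass the test (adjusted p = 0.249, limma). With each library weighted by its fit, Foxd3 rose by 2.50 (adjusted p = 0.0169, limma), in a fit where 34.8% of all genes rose.

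Fabp7, on chromosome 10 (57784881 to 57788450, plus strand), encodes the brain fatty acid binding protein of radial glia, Schwann cell precursors and satellite glia. Its reads numbered 9, 22, 122 and 16 in vehicle libraries 1 to 4 and 90, 385, 214 and 163 in panobinostat libraries 1 to 4. As CPM these were 0.397, 1.08, 5.41 and 0.756, against 4.03, 20.0, 10.2 and 8.31. Vehicle library 3 lay above panobinostat library 1, and no other vehicle library reached the treated range. The log2 change was 2.95 (SE 0.76, 95% interval 1.23 to 4.66), a 7.71-fold rise (limma, adjusted p = 0.00762). Without panobinostat libraries 3 and 4 the change was 2.93, and the adjusted p of 0.05002 (limma) fell just short of the threshold. The two-sided exact permutation test gave p = 0.0571.

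Its relatives did not move alike. Fabp4, the adipocyte and capillary form, rose by 3.28 (SE 0.94, adjusted p = 0.0125, limma; 3.24 and not called without panobinostat libraries 3 and 4), Fabp5, the epidermal form, fell by 0.44 (SE 0.10, adjusted p = 0.00507, limma), and Fabp3, the heart form, made no call (1.19, SE 0.88). Fabp5 was not called after quantile normalization (-0.13), without panobinostat libraries 3 and 4 (-0.41) or against a 1.5-fold change. Vehicle library 1, with the lowest Fabp7, had the highest Fabp4 of the vehicle tumours (454 CPM). Vehicle library 3, with the highest Fabp7, had 26.8 CPM of Fabp4.

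S100b, on chromosome 10 (76253853 to 76261159, plus strand), encodes a calcium-binding protein used as the routine stain for Schwann cells and also made by adipocytes. Vehicle libraries 1 to 4 held 28, 14, 10 and 7 reads (1.24, 0.686, 0.443 and 0.331 CPM). Panobinostat libraries 1 to 4 held 163, 162, 88 and 133 reads (7.30, 8.39, 4.21 and 6.78 CPM). Every treated tumour stood above every vehicle tumour. The log2 change was 3.39 (SE 0.41, 95% interval 2.45 to 4.32), a 10.5-fold rise (limma, adjusted p = 1.07e-04), the 241st largest increase among genes tested. On the log2(CPM + 1) scale, which compresses low values, the change was 2.19.

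The order of vehicle libraries for S100b, 1 above 2 above 3 above 4, was that of 10 summed adipocyte markers (822, 366, 73.7 and 51.6 CPM) and of 10 summed fibroblast and mural markers (4890, 2110, 1570 and 1510 CPM). Mbp had exactly the reverse order, and Erbb3 and Foxd3 were also lowest in library 1. With panobinostat the adipocyte markers summed to 1230 to 1820 CPM and were highest in library 3, where S100b was lowest. The part of these cells in the S100b result was not tested. All 7 other S100 genes listed rose, from 0.86 (SE 0.27) for S100a16 to 2.74 (SE 0.32) for S100a1, a heart and muscle relative. S100a16 was not called without panobinostat library 1 (0.71), after quantile normalization (0.47) or against a 1.5-fold change.

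Mbp, on chromosome 18 (82475146 to 82585637, plus strand), encodes myelin basic protein of the major dense line, and its locus also yields the golli transcripts of neurons and immune cells, which a gene-level value does not separate. It was read at 80.1, 89.9, 95.7 and 121 CPM in vehicle libraries 1 to 4 and at 46.5, 105, 61.1 and 63.7 CPM in panobinostat libraries 1 to 4. All treated tumours but library 2 lay below every vehicle tumour. The log2 change was -0.53 (SE 0.23, 95% interval -1.06 to -0.01), which did not pass after adjustment (adjusted p = 0.0691, limma). Without panobinostat library 2 it was -0.76 (adjusted p = 0.00588, limma), with 29.1% of all genes lower in that fit. With libraries centred on their medians it was -0.65 (adjusted p = 0.0359, limma), with 37.5% of all genes lower.

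Pmp22, on chromosome 11 (63128982 to 63159547, plus strand), encodes the tetraspan protein of compact peripheral myelin and is also expressed in fibroblasts and many epithelia. Values were 103, 99.4, 74.3 and 103 CPM in vehicle libraries 1 to 4 and 104, 128, 106 and 97.8 CPM in panobinostat libraries 1 to 4. Panobinostat library 4 alone lay within the vehicle range, and the other 3 treated values stood just above it or, in library 2, further off. The log2 change was 0.20 (SE 0.13, 95% interval -0.10 to 0.50, adjusted p = 0.215, limma), so the interval holds changes from 0.932-fold to 1.42-fold. After quantile normalization it was 0.40 (adjusted p = 0.0188, limma), where 28.4% of all genes rose. The related membrane protein genes Emp1 (1.31, SE 0.30), Emp2 (1.90, SE 0.19) and Emp3 (2.01, SE 0.21) all rose.

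**Figure D1:**
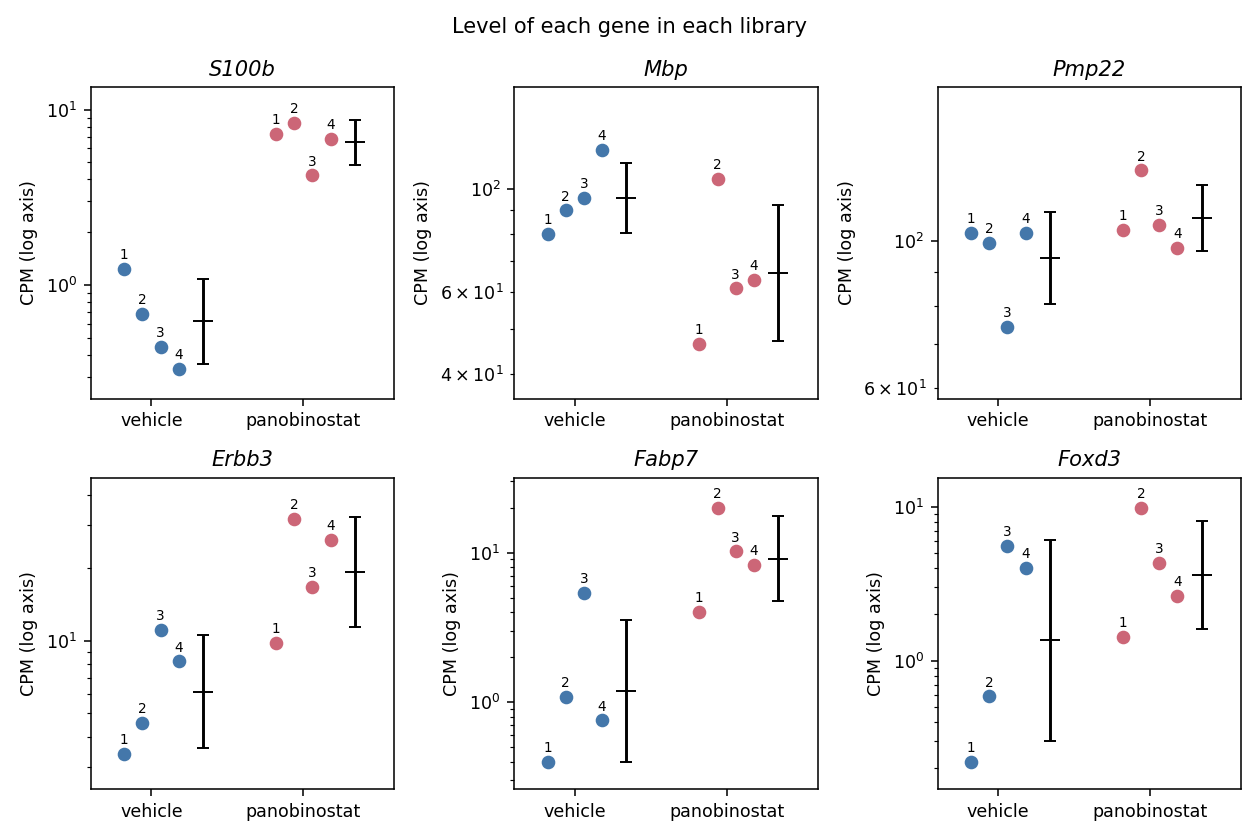
CPM of each of the 6 genes in each library on log axes, with library numbers beside the points and the mean ± 1 SD of log2 values (n = 4) in black. The 4 panobinostat points of S100b, from 4.21 to 8.39 CPM, lie above all vehicle points. For Pmp22 only panobinostat library 4 lies within the vehicle range, and for Foxd3 all but library 2 do.

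Per kilobase of merged exons, which allows levels to be compared between genes, Pmp22 was the most abundant of the 6 in vehicle tumours at 40.4 ± 5.94 CPM per kilobase, followed by Mbp at 11.4 ± 2.06 (mean ± SD, n = 4). Below these came Fabp7 (1.53 ± 1.88), Erbb3 (1.13 ± 0.584), Foxd3 (1.12 ± 1.13) and S100b (0.454 ± 0.272), and each of these neighbours overlapped in range. With panobinostat Pmp22 stayed first at 46.3 ± 5.56 CPM per kilobase. Fabp7 (8.50 ± 5.39), Mbp (8.14 ± 2.94), S100b (4.49 ± 1.20), Erbb3 (3.51 ± 1.62) and Foxd3 (1.96 ± 1.59) followed, with overlapping ranges between neighbours. Mbp and Pmp22 exceeded the rest in vehicle tumours with no overlap of ranges, and with panobinostat only Pmp22 did.

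Sox10, the transcription factor of glial identity, passed the test by a small margin. It held 8, 22, 214 and 118 reads in vehicle libraries 1 to 4 and 91, 1032, 369 and 267 in panobinostat libraries 1 to 4, a log2 change of 2.81 (SE 1.07, adjusted p = 0.0435, limma). The groups overlapped, since vehicle libraries 3 and 4 stood above panobinostat library 1, and the two-sided exact permutation test gave p = 0.0857. The call was lost without vehicle library 1 (1.96) or 2 (2.48) and without panobinostat library 2 (2.20), 3 (2.73) or 4 (2.86), at adjusted p of 0.0718 to 0.115 in limma, and after quantile normalization (2.34). It was also lost with no variance trend, robust variance, voom weights or median centring, at adjusted p of 0.0531 to 0.0577 in limma. The same held against a 1.5-fold change and without panobinostat libraries 3 and 4 (2.77). Sox10 stayed called with no filter, a 5 CPM filter, library weights (3.84), scaling to read totals or log2(CPM + 1). Foxd3 and Sox10 ordered the libraries identically in both groups. Fabp7 gave the treated libraries that order too. In these 3 genes panobinostat library 2 was highest and library 1 lowest of the treated tumours, and vehicle library 3 was highest and library 1 lowest of the vehicle tumours.

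**Figure D2:**
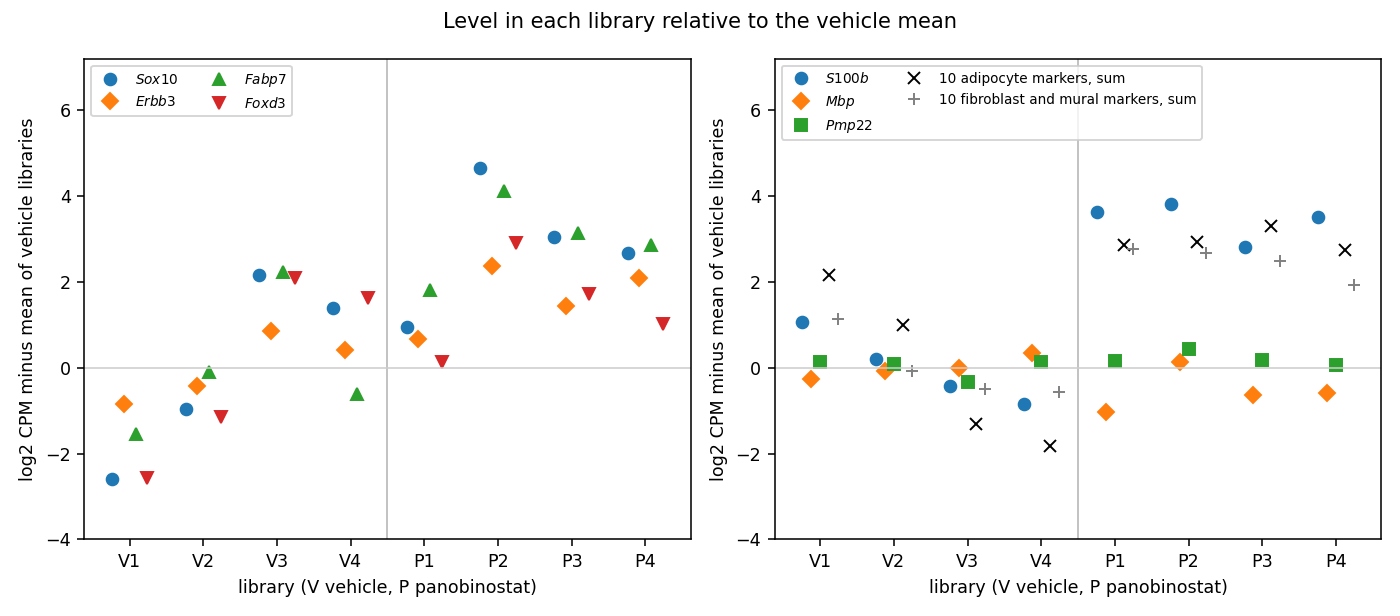
Log2 CPM of each library minus the mean of the 4 vehicle libraries, for Sox10, Erbb3, Fabp7 and Foxd3 (left) and for S100b, Mbp, Pmp22 and 2 summed marker sets (right). The left genes peak in vehicle library 3 and panobinostat library 2, while S100b and the adipocyte sum are highest of the vehicle libraries in library 1, at 1.24 and 822 CPM.

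Ratios within each library show whether the genes changed by different amounts. Foxd3 per Sox10 was nearly constant among vehicle tumours, at a log2 ratio of -0.63, -0.85, -0.76 and -0.47 in libraries 1 to 4, and was -1.49, -2.45, -2.03 and -2.35 in panobinostat libraries 1 to 4. The mean difference was -1.40, and the groups did not overlap (two-sided exact permutation p = 0.0286, adjusted 0.171). Fabp7 per Foxd3 was 1.54 higher with panobinostat, without overlap (exact p = 0.0286, adjusted 0.0857).

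Mbp was lower relative to Erbb3 (-2.18) and Fabp7 (-3.48), and S100b was higher relative to Mbp (3.92) and Pmp22 (3.19), each without overlap (exact p = 0.0286, adjusted 0.0857). These and Fabp7 per Foxd3 were the 5 of 15 pairs with an unadjusted p under 0.05. Of the 6 ratios to Sox10, adjusted in a family of 12, that of Foxd3 had one. No ratio passed after Benjamini-Hochberg adjustment within its family, on this scale or on log2(CPM + 1), and 0.0286 is the smallest p that 70 assignments allow. Fabp7 per Sox10 differed by 0.14 (adjusted exact p = 0.886).

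**Figure D3:**
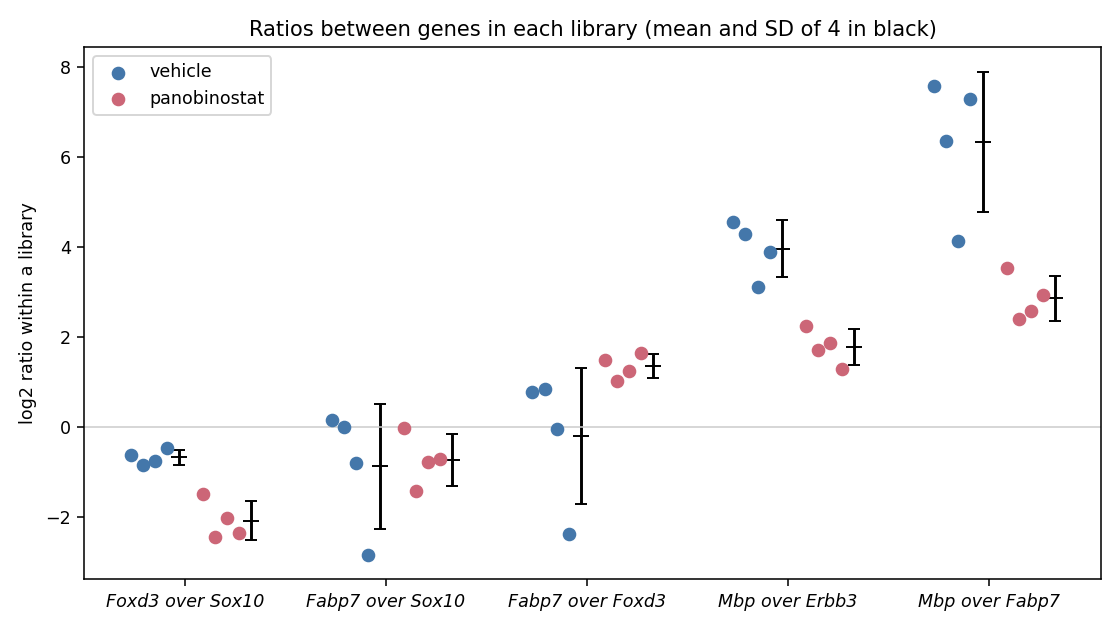
Log2 ratio of 2 genes within each library, with mean ± SD (n = 4) in black. Foxd3 per Sox10, Mbp per Erbb3 and Mbp per Fabp7 are lower in all 4 panobinostat libraries than in any vehicle library, Fabp7 per Foxd3 is higher, and Fabp7 per Sox10 overlaps.

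Among 18 genes of Schwann and satellite glial identity 17 were tested, and 14 rose, 1 fell and 2 were not called, the median log2 change being 2.68. The share of all genes tested that rose was 31.2%, and 28.5% rose without overlap of the groups. Cdh19, a cadherin gene of the Schwann lineage, rose by 3.28 (SE 0.78) and Ngfr, the low-affinity neurotrophin receptor gene, by 3.03 (SE 0.57), both without overlap. Dhh, the Schwann cell hedgehog ligand gene, rose by 3.56 (SE 0.46), and was named with its value in view. The call of the 1 gene that fell was lost without any 1 of the 4 panobinostat libraries. Of the 17, 6 reached 1 CPM in all 4 panobinostat libraries but not in all 4 vehicle libraries, so these passed the filter through the panobinostat libraries. Of all genes tested 8.7% did so. The count of higher genes was 8 without panobinostat library 2, 9 without library 3, 7 without libraries 3 and 4, and 9 after quantile normalization. The median log2 change of the list in these fits was 2.20, 2.70, 2.77 and 2.30, and the share of all genes that rose was 28.0%, 27.6%, 23.4% and 28.4%.

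Genes of myelin formation were split. Of 22 tested 12 rose, 1 fell and 9 were not called, the median log2 change being 0.74, and 31.2% of all genes tested rose. Of the 22, 7 reached 1 CPM in all 4 libraries of the panobinostat group alone. Egr2, the transcription factor of myelination, rose by 2.37 (SE 0.26, adjusted p = 5.49e-05, limma), Mag, the axon-facing adhesion protein gene, by 1.57 (SE 0.28) and Prx, which encodes periaxin, by 0.81 (SE 0.27). None of these overlapped between groups, and 28.5% of all genes had every panobinostat value above every vehicle value. Prx was not called without panobinostat library 1 (0.72), 2 (0.82) or 4 (0.82), at adjusted p of 0.0508 to 0.0693 in limma, or after quantile normalization (0.20). Nor was it called with library weights (0.47), without panobinostat libraries 3 and 4 (0.94) or against a 1.5-fold change. Mag and Egr2 rest on few reads, at most 13 in a vehicle library for Mag and 48 for Egr2, against at least 26 and 138 with panobinostat. The summed level of the list was lower after treatment, at 834 to 991 CPM with vehicle and 530 to 745 CPM with panobinostat. Nfasc, which is also a neuronal axon gene, had the most CPM of the list in both groups and fell by 1.36 (SE 0.15), from a mean of 505 CPM to 198 CPM. Nfasc was picked out with its value in view. Next by level came Cadm4 (means of 150 CPM with vehicle and 122 CPM with panobinostat), Ndrg1 (93.6 and 104 CPM) and Cers2 (85.0 and 85.1 CPM). The lower sum therefore does not describe the other genes of the list. After quantile normalization 9 rose and 6 fell, in a fit where 28.4% of all genes rose. The share of all genes that fell in that fit is not given here, and its median over all genes was -0.14.

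Of 10 tested neural crest regulators 8 rose, 1 fell and 1 was not called (median 2.20), and 5 of them reached 1 CPM in all 4 libraries only with panobinostat. Over all genes tested 31.2% rose and 32.4% fell. The crest gene that fell, Tfap2b, had the most CPM of its list in both groups. It changed by -2.76 (SE 0.16), from a mean of 710 CPM to 105 CPM, and was named with its value in view. The summed level of the crest list was 676 to 889 CPM with vehicle and 221 to 316 CPM with panobinostat. Sox9, a crest and cartilage factor, rose by 1.93 (SE 0.40), Pax3, a crest and muscle factor, made no call (-0.52, SE 0.27) except without vehicle library 4 (-0.72), with library weights (-0.66) or after quantile normalization (-1.16), and Tfap2a was under the filter, with 6 to 14 reads in the vehicle group and 13 to 27 reads after treatment. After quantile normalization 6 of the 10 rose and 2 fell, where 28.4% of all genes rose and the share that fell is not given here. Several of these genes, such as Twist1 and Snai2, are also active in fibroblasts. Of 7 tested genes of immature and repair Schwann cells 4 fell, Bdnf, Cdh2, Gap43 and Ncam1, and 1 rose (median -0.98). Which cells of the tumour gave these reads was not tested. Sox2, with 0 to 7 reads in vehicle and 11 to 40 in treated libraries, Olig1, with 0 to 1 and 17 to 22 reads, and Lif were under the filter. With no filter 4 of 10 fell and 3 rose (median -0.29, against 0.025 over all genes). The shares of all genes that fell or rose in that fit are not given here. Gap43, the growth cone protein gene, fell by 1.20 (SE 0.32, adjusted p = 0.00818, limma), and Jun, the driver of the repair state, made no call (-0.05, SE 0.20). Gap43, which neuroblasts also express, stood at 138 to 406 CPM with vehicle and 73.0 to 109 CPM with panobinostat.

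**Figure D4:**
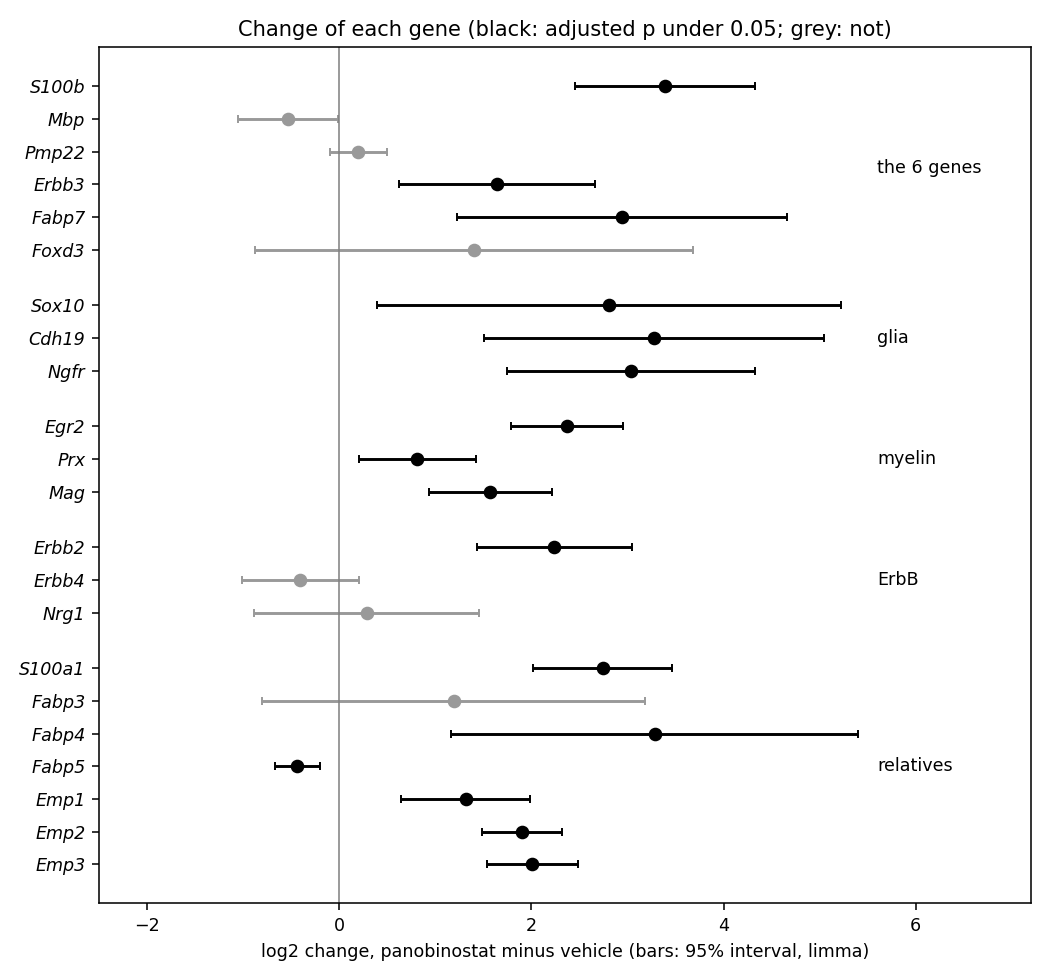
Log2 change of each gene, panobinostat minus vehicle, with 95% intervals from limma (n = 4 per group). Of the 6 genes at the top, S100b, Erbb3 and Fabp7 are called, with Foxd3 carrying the widest interval (-0.88 to 3.68) and Pmp22 lying near 0.

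Cells other than Schwann cells use some of these genes, so their markers were read in the same libraries. Adipocyte markers rose in 9 of 10 cases, fibroblast and mural markers in 10 of 10 and macrophage markers in 8 of 9. Endothelial markers rose in 2 of 8 cases and epithelial markers in 3 of 5, where 31.2% of all genes tested rose. Of the adipocyte markers 2, and of the epithelial markers 2, reached 1 CPM in all 4 libraries only with panobinostat. Leaving out 1 library at a time gave 1 to 4 endothelial genes, the 4 without vehicle library 1. For epithelial genes it gave 0 without vehicle library 1, 3 or 4 or panobinostat library 1 or 4, and 1 without panobinostat library 3. After quantile normalization no epithelial gene rose (median 1.36). Fibroblast markers summed to 1510 to 4890 CPM with vehicle and 8410 to 15200 CPM with panobinostat, and macrophage markers to 343 to 691 and 1600 to 2730 CPM. Epithelial markers, which go with Erbb3 in epithelia, summed to 5.83 to 19.5 and 9.22 to 54.0 CPM and were lowest of the treated tumours in library 2, where Erbb3 was highest. Endothelial sums overlapped (97.2 to 509 and 303 to 491 CPM).

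Of 6 melanocyte markers only Tyr was listed, at 0.665 to 1.63 CPM over all 8 libraries. Of 6 oligodendrocyte markers 3 were listed, Cldn11 and Myrf passed the filter and Mog did not, and the sum was 21.8 to 45.5 CPM with vehicle and 36.1 to 60.7 CPM with panobinostat. Beside the 31.2% of all genes tested that rose, astrocyte markers rose in 2 of 3 tested cases. These were Slc1a3 and Aldh1l1, the latter also a liver gene. The single lymphocyte marker tested, Cd79a, made no call. Adrenal cortex markers rose in 5 of 5 tested cases, beside the same 31.2%. Of these 5, however, 4 reached 1 CPM in all 4 libraries only with panobinostat. Alb of liver, Cela1 of pancreas and 1 of 2 kidney genes, Lrp2, passed as well. These last 3 calls were each lost when some single libraries were left out. Alb was not called without panobinostat library 3, nor Cela1 without any 1 of the vehicle libraries or panobinostat library 2, and the kidney count was 0 without vehicle library 1, 3 or 4 and 2 without panobinostat library 1. The part of these cells in the changes of the 6 genes was not tested. In the fits without panobinostat libraries 3 and 4, libraries 1 and 2 still held adrenal cortex sums of 717 and 39.3 CPM.

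The genes whose profile over the 8 libraries lay nearest to each of the 6 were found by the root-mean-square distance of log2 values, each gene centred on its own mean. S100b was nearest to Il33 (0.24), Wipi1 (0.30) and Slc6a7 (0.30), and Erbb3 to Gabrq (0.24), Tcfl5 (0.25) and Fam89a (0.34). Fabp7 was nearest to Ptprz1 (0.45), a phosphatase gene of glial precursors, Inava (0.54) and Crym (0.62). Foxd3 was nearest to Slitrk6 (0.44), Apod (0.48), a lipocalin gene of Schwann cells, and Sostdc1 (0.51). The nearest genes to Mbp were Adam11 (0.16), Stk33 (0.17) and Syt9 (0.19), and to Pmp22 Zfp516 (0.08), Tbc1d22a (0.09) and Zcchc2 (0.10). Distances grow with the spread of a gene, so those of Foxd3 and Pmp22 are not on one footing. Ptprz1 and Sostdc1 were also on the glial list.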

How the data were processed

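Total RNA of whole tumours was made into TruSeq libraries, per the labels' protocols. Tools listed, per the submitters' processing notes and with no role stated, are TopHat2, HTSeq, CASAVA 1.8.2 and limma, and the build is mm10. Not given in the sources used here are the annotation, the filter and the strand setting. The authors deposited 1 log2 value per gene and library, in the form of log2 CPM with 0.5 reads added. Undoing this gave 100% of values as whole reads (tolerance 0.001 read), from which reads and CPM are taken. Symbols were matched for 17228 of 17488 identifiers. Coordinates and exon lengths are from GENCODE M21 (the assembly of mm10), and upstream windows from RefSeq (GRCm38.p6). S100b overlaps the span of Dip2a on the opposite strand with 0 shared exon bases. Foxd3 shares 89 exon bases with a microRNA model, Gm23366.

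Genes at 1 CPM or more in at least 4 of 8 libraries (16157) entered a linear model in limma 3.58.1 (R 4.3.3, lmFit and eBayes with a trend in variance, 2 groups, no covariate, two-sided, Benjamini-Hochberg, threshold 0.05). Single ratios were tested by exact permutation in scipy 1.17.1. The fit was run on simulated data in which 200 of 16157 genes changed and every gene had the same spread setting (dispersion 0.05). It recovered 72% of 2-fold and 100% of 4-fold changes, with 11 false calls. In the real data 63.7% of genes were called, and spreads as wide as that of Foxd3 were not simulated. The 6 genes and all lists were chosen with earlier results of these data known. Genes named are the 6, fixed glial, myelin, ErbB, crest and related genes, the 3 nearest in profile to each of the 6, and the 2 of each cell type list with the smallest adjusted p. Not all of the last are printed, and some genes named by the rule, with the ratios to 1 of them, are not reported here. Replicate numbers follow accession order and pair nothing. Sample codes are all lower for vehicle, and a difference of cohort could not be told apart from treatment. Limma p-values set the group difference against the spread between animals, moderated over all genes. With 1 library per animal, this spread also holds dissection and library preparation.

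Alternatives were no filter, 5 CPM, no trend, robust variance, library weights, voom weights, 3 scalings, an added pseudocount of 1 CPM, a test against a 1.5-fold change, exact permutation, and leaving out libraries. The fit of the lists without a filter was added after the data were seen.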

Additional observations from a re-analysis of the deposited data

Results flagged for a closer look

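In 58 groups of 4 libraries checked, 2 held a library far from the other 3, and chance marks about 1 group in 20 by this rule (Dixon's gap test). Pmp22 stood at 74.3 CPM in vehicle library 3, against 99.4 to 103 CPM in the other vehicle libraries. Jun stood at 78.8 CPM in panobinostat library 1, against 101 to 102 CPM in the other treated libraries.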

How the results depend on the processing

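S100b kept its direction and call in every alternative that tested it (it was under a filter of 5 CPM). Against a 1.5-fold change Erbb3 was not called (1.64, adjusted p = 0.0674, limma). Exact permutation, which cannot go below p = 0.0286, gave p = 0.0571 for Erbb3 (1.64) and Fabp7 (2.95). Without panobinostat libraries 3 and 4 the calls of Erbb3 (1.52) and Fabp7 (2.93) were lost, which left 1 gene called and 1 gene higher. Fewer libraries entered that fit. Mbp fell with libraries centred on their medians (-0.65, adjusted p = 0.0359, limma), which made 1 gene lower. Pmp22 rose with quantile normalization (0.40) and Foxd3 with library weights (2.50). The cause of these changes was not tested. Scaling moved the median change of all genes from -0.02 to 0.10 (read totals) or -0.14 (median centring or quantiles). Leaving out each library in turn gave log2 changes of 3.12 to 3.73 for S100b, -0.76 to -0.37 for Mbp, 0.09 to 0.25 for Pmp22, 1.36 to 1.97 for Erbb3, 2.45 to 3.68 for Fabp7 and 0.58 to 2.09 for Foxd3. Across these fits 3 to 4 of the 6 genes were called, 0 to 1 lower, the 1 being Mbp without panobinostat library 2. The difference of Fabp7 per Sox10 changed sign on the log2(CPM + 1) scale (-0.051). No paired analysis was possible because the numbers in the labels run through all 8 samples and none is shared between groups. Few vehicle reads limit the precision of S100b (7 to 28), Fabp7 (9 to 22 in 3 of 4 libraries) and Foxd3 (5 and 12 in libraries 1 and 2).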
